A study of Homo sapiens with 21 samples.

Results

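The long noncoding RNA genes NEAT1 and MALAT1 lie next to each other on the long arm of human chromosome 11, with the protein-coding gene FRMD8 on their centromeric side. These 3 neighbouring genes, of 26485 in the count table, are described here in RNA and in DNA-RNA hybrids. They were chosen by name with results of these data already known, so their own values in RNA-seq and in the hybrid peak lists are a description, and no test is given for them. MDA-MB-436 is an established human breast cancer line with mutated BRCA1. Its cells carried a doxycycline-inducible lentiviral hairpin, either the control shScr (condition WT in the labels) or shRNF8 (condition RNF8-KD), which targets the ubiquitin ligase RNF8. A single RNF8 hairpin name is labelled and no rescue, so effects of the hairpin and of RNF8 loss cannot be told apart. RNA was sequenced by an mRNA protocol in 3 shScr and 3 shRNF8 libraries. Sonicated chromatin was immunoprecipitated with the hybrid-binding antibody S9.6 (DRIP-seq) in 2 shScr and 4 shRNF8 libraries, and as many RNase-treated libraries were made, the kind of RNase being given only as a code. The 3 input libraries were not analysed here. No label says whether replicates came from separate cultures, so the spread between them may be technical.

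NEAT1 RNA is the scaffold of paraspeckles, nuclear bodies built from RNA-binding proteins. It is made as a short polyadenylated transcript and as a long one that runs on past the end of the short one and closes with a triple helix in place of a poly(A) tail. MALAT1 RNA is an abundant nuclear transcript of splicing-factor-rich nuclear speckles, and its 3′ end is likewise a triple helix, cut by RNase P, which releases a tRNA-like small RNA named mascRNA. Because neither long form ends in a usual poly(A) tail, an mRNA protocol captures them incompletely. FRMD8 encodes a FERM-domain protein that stabilises iRhom proteins and the shedding protease ADAM17. An R-loop forms when RNA pairs with the DNA it was copied from and displaces the other strand. S9.6 binds such hybrids, and RNase H digestion of their RNA is the usual control for the antibody.

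All 3 genes are on the plus strand. In the hg38 positions of the count table FRMD8 spans chr11:65386570-65413524 (26955 bp, 3751 of them exonic), NEAT1 spans chr11:65422798-65445538 as a single exon of 22741 bp, and MALAT1 spans chr11:65497762-65506512 (8751 bp). The short NEAT1 transcript ends at 65426532 and is 3735 bp long. The stretch from the FRMD8 start to the MALAT1 end is 119943 bp, of which 9273 bp lie between FRMD8 and NEAT1 and 52223 bp between NEAT1 and MALAT1. Inside NEAT1 the table places the microRNA gene MIR612 (65444458 to 65444557), which had 0 counts. RefSeq (GRCh38.p14) adds TALAM1, an antisense RNA of MALAT1 (65499312 to 65507432), which was not analysed here. It also starts FRMD8 further out, at 65368026. The counting command sets no strand option, so MALAT1 and antisense reads cannot be told apart, nor can the NEAT1 transcripts, which share their first exon bases.

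RefSeq promoter windows (GRCh38.p14, plus strand, 5′ to 3′) matched FRMD8 and MALAT1. They are shown because R-loops are known to form readily where the displaced strand carries runs of G, and because the S9.6 libraries differed over them. Capitals mark runs of at least 4 G or at least 4 C (a C run is a G run of the other strand). The FRMD8 window is limited to the 183 bases before its first exon, chr11:65386387-65386569. The upstream MALAT1 window is chr11:65497488-65497787 and the internal one, at a second RefSeq start, is chr11:65498795-65499094.
FRMD8: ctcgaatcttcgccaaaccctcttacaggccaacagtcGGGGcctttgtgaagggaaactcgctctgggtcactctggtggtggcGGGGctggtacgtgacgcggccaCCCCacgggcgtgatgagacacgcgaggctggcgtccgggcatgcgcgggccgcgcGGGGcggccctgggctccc
MALAT1 upstream: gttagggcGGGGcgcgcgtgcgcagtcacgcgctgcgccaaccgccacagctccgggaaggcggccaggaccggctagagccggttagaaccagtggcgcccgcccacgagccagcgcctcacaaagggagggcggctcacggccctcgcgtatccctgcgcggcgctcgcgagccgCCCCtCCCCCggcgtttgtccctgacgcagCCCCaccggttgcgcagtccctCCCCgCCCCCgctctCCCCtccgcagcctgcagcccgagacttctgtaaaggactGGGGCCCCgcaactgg
MALAT1 internal: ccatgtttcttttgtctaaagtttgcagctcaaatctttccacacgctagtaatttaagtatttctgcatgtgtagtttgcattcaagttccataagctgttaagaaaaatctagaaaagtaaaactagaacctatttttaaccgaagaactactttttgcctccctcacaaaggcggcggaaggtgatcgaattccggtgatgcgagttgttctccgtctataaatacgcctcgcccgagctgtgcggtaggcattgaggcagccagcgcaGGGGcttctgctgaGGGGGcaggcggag
The FRMD8 window has a GC content of 69.4%, 3 runs of G and 1 run of C. Of RefSeq windows cut to its length, 19.1% hold at least as many G runs and 60.4% at least as many C runs. An S9.6 peak touched the FRMD8 window in 1 of 6 libraries, shRNF8 replicate 3. The upstream MALAT1 window is the richest in GC of the 3, at 73.7%, with 2 runs of G and 7 runs of C. Of all 35116 RefSeq windows, 52.7% hold at least as many G runs and 5.75% at least as many C runs. MALAT1 is on the plus strand, so the strand its RNA would displace is the printed one, which holds the fewer G runs. S9.6 peaks covered the upstream MALAT1 window in shRNF8 replicates 3 and 4 and in no other library. The internal MALAT1 window has 46.0% GC, 2 runs of G and 0 runs of C, and was touched by peaks in shScr replicate 2 and shRNF8 replicates 3 and 4. Of all windows of 300 bases, 75.1% hold a G run and 73.6% a C run, searched on the printed strand, so these letters are common near gene starts.

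Some libraries stood apart from the rest of their group before any gene was looked at. RNA libraries held 18121181 to 20006954 counts and S9.6 libraries 32358 to 50963 peaks. In RNA-seq, the counts of shScr replicate 1 lay far from those of the other control libraries (chi-square divided by its degrees of freedom 30.4 and 29.3), which differed from each other much less (3.43). On the shRNF8 side, replicate 3 lay apart to a lesser degree (13.2 and 10.9, against 2.92 between replicates 1 and 2). In DRIP-seq, the peak lists of shRNF8 replicates 3 and 4 carry peak names with the stems of replicates 1 and 2 while holding other peaks, and covered 83511847 and 79030495 bases of the genome, against 34418316 to 47615081 bases in the other 4 S9.6 libraries. Their depth, measured as the lowest background reads shared by peaks, was also the highest (1.36 and 1.48, against 0.698 to 1.22). Of the cell type markers, VIM, CAV1, CD44 and SPARC were expressed in every library while the luminal markers ESR1, PGR, CDH1, EPCAM and KRT19 and the other-cell markers PTPRC, PECAM1 and ALB stayed under 1 CPM. CD68, a lysosomal protein best known from macrophages, was the exception at 108 to 152 CPM.

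RNF8 itself, the check of the labels, fell by 1.66 on the log2 scale (SE 0.13, edgeR adjusted p = 0.000165, n = 3 each). Its mean level was 28.7 CPM with the control hairpin and 9.09 CPM with shRNF8. CPM is the TMM-scaled count relative to library size, and adjusted p-values are from edgeR's quasi-likelihood fit over all tested genes (Benjamini-Hochberg).

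Both noncoding RNAs had lower levels in every shRNF8 library than in any shScr library, while FRMD8 had higher ones. For NEAT1 the shScr libraries held 2542, 2333 and 2892 counts, in replicate order, and the shRNF8 libraries 1893, 1950 and 2105. In CPM these were 131, 126 and 146 against 101, 99.9 and 118, a mean of 135 ± 10.5 CPM (SD, n = 3) against 106 ± 9.96 CPM (SD, n = 3). The highest NEAT1 level of each group was in its replicate 3, and the groups did not overlap. As fitted, NEAT1 was 1.27-fold lower with the RNF8 hairpin (log2 fold change -0.34, SE 0.10).

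MALAT1 had 2457, 2093 and 2916 counts in shScr and 1652, 1670 and 1921 counts in shRNF8, in replicate order. Its levels were 127, 113 and 148 CPM in shScr (mean 129 ± 17.3 CPM, SD, n = 3) and 88.1, 85.6 and 107 CPM in shRNF8 (mean 93.7 ± 11.9 CPM, SD, n = 3). Replicate 3 was again the highest of each group, and the gap between shRNF8 replicate 3 and shScr replicate 2 was the narrowest between the groups. The fitted difference was 1.38-fold lower (log2 fold change -0.46, SE 0.12).

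FRMD8 went the other way. It had 1038, 903 and 914 counts in shScr and 1257, 1289 and 1038 counts in shRNF8, that is 53.5, 48.9 and 46.3 CPM (mean 49.6 ± 3.64 CPM, SD, n = 3) against 67.0, 66.1 and 58.0 CPM (mean 63.7 ± 4.94 CPM, SD, n = 3). Here replicate 3 was the lowest of each group, the reverse of its place in NEAT1 and MALAT1. The fitted difference was 1.29-fold higher in shRNF8 (log2 fold change 0.36, SE 0.10). Of all 14018 genes tested, 12.8% were lower and 12.5% higher in shRNF8 with no overlap of the groups (25.3% in either direction), and nothing is read from the 3 genes against this since the same contrast was in view when they were chosen. Of the shRNF8 libraries, replicate 3 was nearest to the controls for all 3 genes, and without it the log2 fold changes were the largest, at -0.42 for NEAT1, -0.57 for MALAT1 and 0.43 for FRMD8. Without shScr replicate 1, the control library that stood apart, the log2 fold changes were -0.36 for NEAT1, -0.48 for MALAT1 and 0.42 for FRMD8. Whichever of the 6 libraries was left out, NEAT1 ran from -0.42 to -0.28, MALAT1 from -0.57 to -0.36 and FRMD8 from 0.32 to 0.43. The median log2 fold change of all tested genes lay within 0.01 of 0 under every scaling tried.

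**Figure D1:**
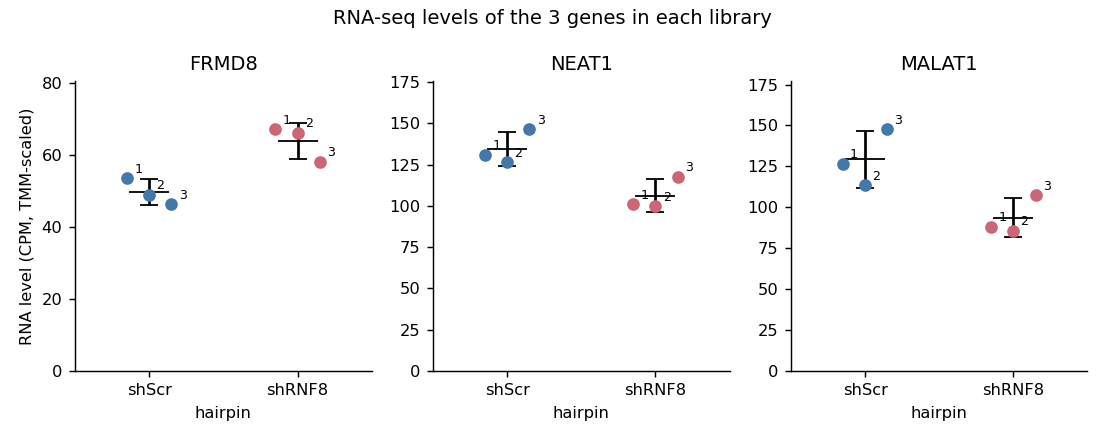
RNA level in CPM (vertical axes, from 0) of FRMD8, NEAT1 and MALAT1 in the 3 shScr (blue) and 3 shRNF8 (red) libraries, numbered by replicate. Bars give the mean and SD of each group. NEAT1 and MALAT1 sit lower in all 3 shRNF8 libraries and FRMD8 sits higher.

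Per kilobase of exon, the scale on which genes can be set beside each other, the levels were ordered differently in the 2 groups. In shScr MALAT1 was at 14.8 ± 1.97 CPM per kb (SD, n = 3), FRMD8 at 13.2 ± 0.970 and NEAT1 at 5.92 ± 0.462. MALAT1 and FRMD8 did not differ there beyond their spread. In shRNF8 FRMD8 was at 17.0 ± 1.32, MALAT1 at 10.7 ± 1.36 and NEAT1 at 4.67 ± 0.438 CPM per kb, each apart from the next by more than their SDs. For NEAT1 and MALAT1 these are levels of what the mRNA protocol captured, not of all transcripts. NEAT1 was divided by its whole exon of 22741 bp, while its short transcript has 3735 bp. Reads of the NEAT1 transcripts cannot be told apart, so its place below FRMD8 and MALAT1 rests on that choice of length.

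Read against each other, NEAT1 and MALAT1 kept a nearly constant proportion. The ratio of NEAT1 to MALAT1 counts was 1.03, 1.11 and 0.992 in shScr (mean 1.05 ± 0.0624, SD, n = 3) and 1.15, 1.17 and 1.10 in shRNF8 (mean 1.14 ± 0.0369, SD, n = 3), and the groups overlapped, shRNF8 replicate 3 lying below shScr replicate 2. Among 10935 genes with a mean of at least 5 CPM, NEAT1 and MALAT1 were each the other's closest gene by Pearson correlation of log2 CPM over the 6 RNA libraries (r = 0.99). With the group means taken away it was 0.98. FRMD8 ran against both (r = -0.96 with NEAT1 and -0.93 with MALAT1), less closely once the group means were taken away (-0.83 and -0.72). These correlations describe 6 points that share their libraries, their depth and the hairpin contrast. After MALAT1, the genes most like NEAT1 were the repressor gene ZBTB18 (r = 0.99) and NABP2, which encodes a single-strand DNA-binding protein (r = 0.98). After NEAT1, those most like MALAT1 were ZBTB18 and PLA2G16, a phospholipase (r = 0.98 each). FRMD8 was most like PRKCDBP, a caveola protein (r = 0.99), POFUT1, which adds fucose to Notch (r = 0.99), and TGFBRAP1, of endosomal tethering (r = 0.99).

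The 10 nearest measured neighbours, 5 on each side, formed no run of higher or lower genes around the locus. By edgeR's test 0 of the 10 passed in either direction, against 2.54% of all tested genes (0.97% higher and 1.57% lower). An unadjusted p under 0.05 was found for 2 of the 10, a share like the 20.1% of all tested genes. Their median log2 fold change was -0.06. The largest of the lower fitted values was that of SSSCA1, an autoantigen gene (log2 fold change -0.48, SE 0.13, edgeR adjusted p = 0.0658), whose groups did not overlap. POLA2, the accessory subunit of DNA polymerase alpha-primase, also had groups that did not overlap, with higher values in shRNF8 (0.26, SE 0.11, edgeR adjusted p = 0.214), and so did CDC42EP2, a CDC42 effector, with lower ones (-0.23, SE 0.10, edgeR adjusted p = 0.257). SLC25A45, the mitochondrial carrier gene next to FRMD8, was barely expressed (1.72 CPM in shScr and 2.60 in shRNF8). With DESeq2 1 neighbour passed, SSSCA1 (adjusted p = 0.0180), and the same gene passed in edgeR without a filter on low counts (adjusted p = 0.0213). Without shScr replicate 1, SSSCA1 and LTBP3 passed as lower (log2 fold change -0.33 and -0.41, edgeR adjusted p = 0.0145 and 0.00255) and POLA2 as higher (0.37, edgeR adjusted p = 0.00937), in a fit in which 12.8% of all genes were called higher and 14.3% lower (27.1% in all).

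**Figure D2:**
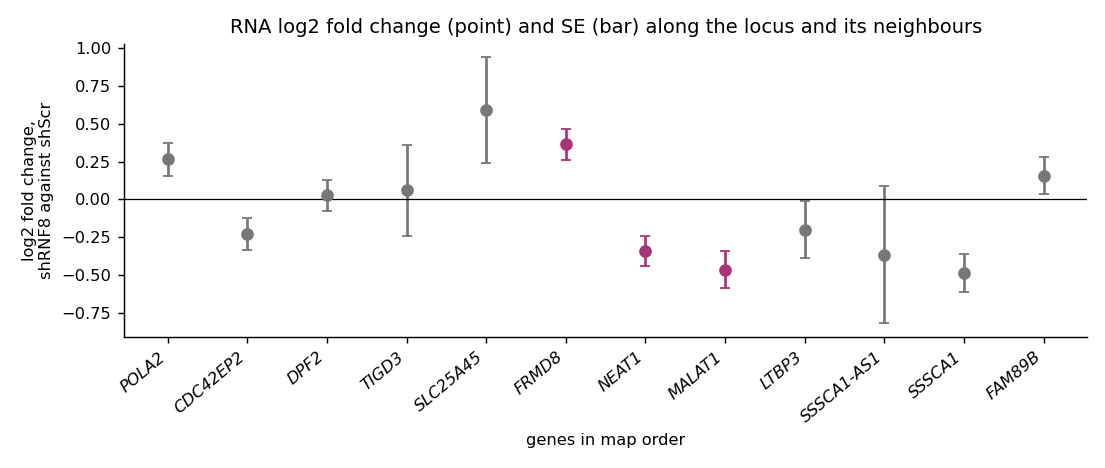
Log2 fold change of RNA in shRNF8 against shScr (points) with its SE (bars) for the 3 genes (purple) and the neighbours shown (grey), in map order. FRMD8 is above 0 and NEAT1 and MALAT1 are below it, between neighbours on both sides of 0.

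Few mRNAs of the proteins that work with NEAT1 and MALAT1 passed the test. Of 30 paraspeckle protein genes, all tested, 0 passed by edgeR (2.54% of all genes did) and 1 with DESeq2 (SMARCA4, adjusted p = 0.00776). An unadjusted p under 0.05 was found for 6 of the 30, again a share like that of all genes (20.1%). Their median log2 fold change was 0.09, with 22 fitted values above 0 and 8 below, against a median of 0.00 for all genes. The lowest p belonged to SMARCA4, the BRG1 subunit of the SWI/SNF remodeller (285 ± 40.2 CPM in shScr and 207 ± 18.4 in shRNF8, log2 fold change -0.46, SE 0.11, edgeR adjusted p = 0.0608), which passed without a filter on low counts (edgeR adjusted p = 0.0140). Next was TAF15, an RNA-binding protein and subunit of TFIID (78.1 ± 11.7 and 100 ± 1.85 CPM, 0.36, SE 0.11, edgeR adjusted p = 0.104). The core paraspeckle proteins SFPQ (567 ± 99.7 and 612 ± 10.7 CPM), NONO (780 ± 69.8 and 791 ± 30.4 CPM) and PSPC1 (41.1 ± 4.11 and 39.5 ± 2.91 CPM), named here for their role and not by the rule, had log2 fold changes of 0.11, 0.02 and -0.06. Without shScr replicate 1, 13 of the 30 genes passed as higher, TAF15, EWSR1 and SFPQ among them, and SMARCA4 as lower, in a fit that called 12.8% of all genes higher and 14.3% lower.

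Of 25 tested nuclear speckle protein genes, 1 fell and 24 did not pass, beside 1.57% of all genes called lower, so that the count is near the share over all genes. The 1 that fell was SRSF4, a serine/arginine-rich splicing factor (128 ± 16.8 CPM in shScr against 85.7 ± 1.05 CPM, SD, n = 3 each, log2 fold change -0.57, SE 0.10, edgeR adjusted p = 0.0166). It did not pass without shRNF8 replicate 1, 2 or 3 (edgeR adjusted p = 0.0980, 0.118 and 0.101), with log2 fold changes of -0.56, -0.57 and -0.58. The list's median was 0.07. Without shScr replicate 1, 8 speckle genes passed as higher (12.8% of all genes did), SRSF6, SRSF5 and SRSF2 among them, and SRSF4 and SRRM2 as lower. Of 12 tested genes that cut or finish tRNA-like 3′ ends, which include the RNase P subunits, 0 passed by edgeR and 0 with DESeq2, with 6 at an unadjusted p under 0.05 (20.1% of all genes were). Their median was 0.23, with 9 fitted values above 0. RPP38, an RNase P protein subunit, was at 16.2 ± 2.18 CPM in shScr and 21.1 ± 1.16 in shRNF8 (0.38, SE 0.13, edgeR adjusted p = 0.137). POP5, another subunit, was at 16.9 ± 0.156 and 21.1 ± 2.33 CPM (0.32, SE 0.12, edgeR adjusted p = 0.170). Without shScr replicate 1, 7 of these 12 passed as higher, in the same fit that called 12.8% of all genes higher.

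In chromatin, the locus carried S9.6 peaks in all 6 libraries and the NEAT1 start held some of the strongest peaks of the whole genome. Fold enrichment is the authors' value for each peak over its local background. There were 28 and 24 peaks from FRMD8 through MALAT1 in shScr replicates 1 and 2, and 19, 23, 23 and 19 in shRNF8 replicates 1 to 4. They covered 41.0% and 40.7% of the bases in shScr, 35.7% and 36.3% in shRNF8 replicates 1 and 2, and 73.0% and 68.0% in replicates 3 and 4. The number of peaks did not follow the bases covered: shRNF8 replicates 1 and 4 had as many peaks, while the second covered far more. All 3 genes had at least 1 peak in each of the 6 libraries, as did 42.5% of 12660 expressed genes (those with a mean of at least 1 CPM).

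**Figure D3:**
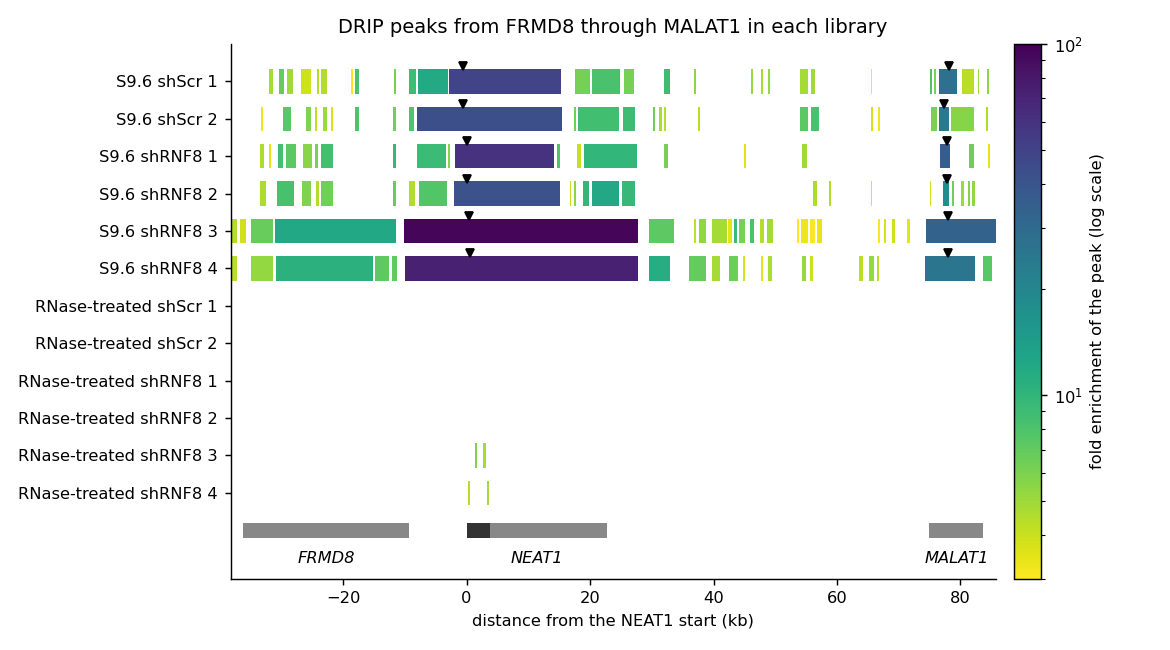
Peaks over the locus in the 6 S9.6 and 6 RNase-treated libraries (rows), by distance from the NEAT1 start in kb, coloured by fold enrichment on a log scale. Triangles mark summits of peaks of at least 15-fold, grey bars are the genes and the dark bar is the short NEAT1 transcript. The NEAT1 peak spans the gene start in all 6 S9.6 libraries, is widest in shRNF8 replicates 3 and 4, and the RNase-treated rows hold 4 small peaks in all.

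The leading NEAT1 peak was 49.5-fold and 43.1-fold enriched in shScr replicates 1 and 2. In shRNF8 replicates 1 to 4 it was 60.5-fold, 41.1-fold, 94.9-fold and 72.5-fold. By fold it ranked 6 and 10 among all peaks of the shScr libraries and 12, 6, 1 and 1 in the shRNF8 libraries. The mean was 46.3 ± 4.49 (SD, n = 2) against 67.3 ± 22.5 (SD, n = 4), and the groups overlapped, shRNF8 replicate 2 lying below both shScr libraries. Without replicates 3 and 4 the shRNF8 mean was 50.8, and with replicates 3 and 4 alone it was 83.7.

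Scaled to depth, the same peaks read differently by the scaling used. The number of reads at the summit was recovered from the fold and the p of each peak, and was 161 and 115 in shScr and 177, 151, 269 and 247 in shRNF8. Divided by the library background, these were 132 and 137 in shScr (mean 135 ± 3.28, SD, n = 2) and 254, 159, 198 and 167 in shRNF8 (mean 194 ± 42.8, SD, n = 4). On this scale all 4 shRNF8 libraries were above both shScr libraries, with replicate 1 and not replicate 3 the highest. The other scaling to depth, which brought pileup and local background down to the shallowest library before the fold was taken, did not give this order. Its folds were 40.4 and 40.3 in shScr and 60.5, 37.5, 71.4 and 55.1 in shRNF8, so that replicate 2 lay below both shScr libraries and replicate 3 was the highest. By pileup per library background, 5.28% of 10020 expressed genes with an S9.6 peak had groups that did not overlap in this direction and 13.5% in the other.

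The summit lay on different sides of the NEAT1 start. It was 633 and 569 bp before the start in shScr replicates 1 and 2, 140 and 142 bp after it in shRNF8 replicates 1 and 2, and 464 and 571 bp after it in shRNF8 replicates 3 and 4. Libraries with the same stem in their peak names did not share a position, while those of a pair (1 and 2, or 3 and 4) lay close together. The position of a summit depends on the shape of the pileup, and no test of it was made. How often summits at other genes split by hairpin was not counted.

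**Figure D4:**
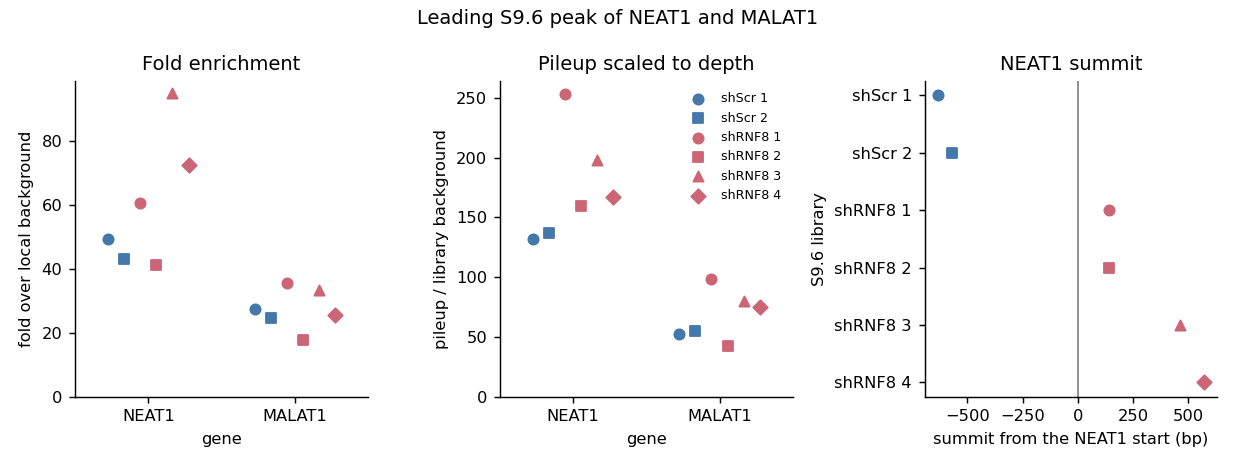
The leading S9.6 peak of NEAT1 and MALAT1 in each library, as fold enrichment (left) and as summit pileup divided by library background (middle), and the NEAT1 summit in bp from the gene start (right). Blue is shScr, red is shRNF8 and the symbol gives the replicate. NEAT1 shRNF8 values overlap with shScr by fold and lie above it as pileup per library background, and the summits lie before the start in shScr and after it in shRNF8.

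The NEAT1 peak was widest in shRNF8 replicates 3 and 4, the libraries where its fold was also highest. It was 18201 and 23502 bp wide in shScr, 16083 and 17304 bp in shRNF8 replicates 1 and 2, and 37844 and 37800 bp in shRNF8 replicates 3 and 4, where it ran from inside FRMD8 to beyond the NEAT1 end. The short NEAT1 transcript was covered to 100% in all 6 libraries. The whole gene was covered to 88.8% and 90.1% in shScr, 84.0% and 84.5% in shRNF8 replicates 1 and 2, and 100% in replicates 3 and 4 (mean 89.5% ± 0.939, SD, n = 2, against 92.1% ± 9.10, SD, n = 4). The groups overlapped, with the shScr libraries between the 2 pairs of shRNF8 libraries.

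A separate peak stood over the 3′ end of NEAT1, where MIR612 lies, in shScr replicates 1 and 2 and shRNF8 replicates 1 and 2. In shRNF8 replicate 1 its summit, at 65446060, lay beyond the NEAT1 end, so its values there were read outside the gene. The peak was 8.22-fold and 8.70-fold enriched in shScr and 9.90-fold and 12.1-fold in shRNF8. Its summit pileup per library background was 37.0 and 41.7 in shScr and 37.2 and 34.8 in shRNF8. On this scale the order seen in fold was not kept. The other scaling, down to the shallowest library, kept it. Among peaks touching the gap from NEAT1 to MALAT1, this one included, the highest folds were then 7.42 and 8.51 in shScr. In shRNF8 replicates 1 and 2 they were 9.90 and 10.8. In shRNF8 replicates 3 and 4 the large NEAT1 peak reached over MIR612 and no separate summit was listed there.

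MALAT1 held the second strong peak of the locus, with its summit inside the gene and not at its start in the count table. The leading peak was 27.5-fold and 24.8-fold enriched in shScr, and 35.6-fold, 17.9-fold, 33.3-fold and 25.5-fold in shRNF8 replicates 1 to 4 (mean 26.1 ± 1.91, SD, n = 2, against 28.1 ± 8.06, SD, n = 4). It ranked 97 and 114 among the peaks of the shScr libraries and 107, 303, 60 and 99 in the shRNF8 libraries. The groups overlapped by fold, and also by pileup per library background, which was 52.6 and 54.8 in shScr and 98.8, 42.2, 80.1 and 75.1 in shRNF8. The summit was 3192 and 2307 bp into the gene in shScr and 2936, 2869, 3019 and 3084 bp in shRNF8. In both shScr libraries the leading peak began at 65499316. The stretch chr11:65499899-65500955 (1057 bp) lay under a peak in all 6 libraries.

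Coverage of MALAT1 split the shRNF8 libraries. Peaks covered 67.0% and 71.9% of the gene in shScr, 27.5% and 34.1% in shRNF8 replicates 1 and 2, and 100% and 86.8% in replicates 3 and 4. The shRNF8 mean was thus 62.1% ± 36.6 (SD, n = 4) against 69.4% ± 3.44 (SD, n = 2), a difference of -7.33 percentage points. It was -38.6 points with shRNF8 replicates 1 and 2 only and 24.0 points with replicates 3 and 4 only. With only peaks of a -log10 q of at least 10 the difference was 26.3 points (27.9% in shScr and 54.3% in shRNF8). In the shScr libraries the widest peaks over the 3′ part of the gene had a -log10 q of 7.46 and 9.23. RefSeq places mascRNA at 65506117 to 65506174, and a peak lay over it in 1 library, shRNF8 replicate 3.

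FRMD8 had many small peaks in its body. Peaks covered 24.3% and 16.9% of the gene in shScr, 29.1% and 30.5% in shRNF8 replicates 1 and 2, and 90.9% and 85.6% in replicates 3 and 4. Of the 3 genes, FRMD8 was the one whose covered share was higher in every shRNF8 library than in any shScr library, as it was in 8.5% of 10020 expressed genes with a peak (7.06% lower). The mean was 20.6% ± 5.20 (SD, n = 2) against 59.0% ± 33.8 (SD, n = 4). The difference of 38.4 percentage points was 9.16 with shRNF8 replicates 1 and 2 only and 67.6 with replicates 3 and 4 only. Of the FRMD8 bases, 45.0% were under a peak in shRNF8 replicates 3 and 4 and in no other S9.6 library.

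The strongest peak with its summit inside FRMD8 was 8.21-fold and 8.04-fold enriched in shScr and 9.66-fold, 8.37-fold, 12.2-fold and 10.7-fold in shRNF8. Its pileup per library background was 15.6 and 17.9 in shScr and 24.3, 25.3, 34.5 and 34.5 in shRNF8. When any peak touching a gene was counted, fold was higher with no overlap of the groups in 8.08% of expressed genes with a peak. It was lower in 12.4%. By pileup per library background, counted in the same way, the shares were 5.28% higher and 13.5% lower. No such share was computed for peaks with their summit inside the gene, so these shares are not of the same measure. The summit was not the same place in all libraries: it lay 18463 bp into the gene in both shScr libraries, and at 24384, 5843, 13402 and 5843 bp in shRNF8 replicates 1 to 4. In shRNF8 replicates 3 and 4 the NEAT1 peak also reached into the last bases of FRMD8, so that counting any overlap gives FRMD8 the folds of NEAT1 there.

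**Figure D5:**
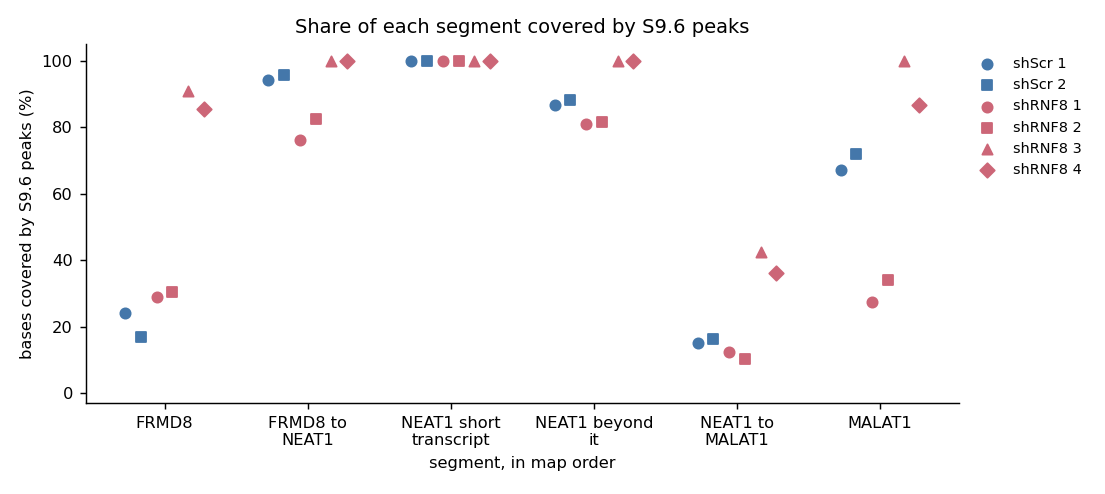
Percentage of bases under S9.6 peaks (vertical axis) in 6 segments in map order, for 2 shScr (blue) and 4 shRNF8 libraries (red, symbol by replicate). The short NEAT1 transcript is at 100% in all 6 libraries, FRMD8 and MALAT1 spread widely, and shRNF8 replicates 3 and 4 are the highest or tied in every segment.

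The gaps between the genes followed the same pairs. Between FRMD8 and NEAT1 peaks covered 94.0% and 95.8% in shScr, 76.2% and 82.5% in shRNF8 replicates 1 and 2, and 100% in replicates 3 and 4. In the long gap from NEAT1 to MALAT1 the shares were 15.2% and 16.5% in shScr, 12.4% and 10.4% in shRNF8 replicates 1 and 2, and 42.6% and 36.2% in replicates 3 and 4. Bases under a peak in all 6 libraries made up 26.6% of the locus (31880 bases in 14 stretches), 79.4% of NEAT1, 17.3% of MALAT1 and 8.99% of FRMD8. The longest of these stretches was 16083 bp and held the NEAT1 start. Peaks were also scaled to the depth of the shallowest S9.6 library and the weak ones dropped. The difference in covered share of the locus, 12.4 percentage points as deposited, was then 11.7 points. The peaks that stayed kept their deposited bounds, so this step could not narrow a wide peak. It does not show what part depth has in the width of the peaks. The difference was -4.87 points with shRNF8 replicates 1 and 2 only and 29.6 with replicates 3 and 4 only, so its sign rested on the latter.

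Among all expressed genes the locus was heavily covered. NEAT1 had a larger covered share than 95.3% of 12660 expressed genes (median over the 6 libraries, from 92.9% to 96.1%), MALAT1 than 90.1% (81.0% to 92.9%) and FRMD8 than 83.2% (75.2% to 89.2%). Coverage differed with gene length: the median expressed gene was covered to 1.48%, and the median among those of 0.5 to 2 times the length of MALAT1 to 14.2%. Among expressed genes of like length the share covered less was 98.4% for NEAT1, 80.7% for MALAT1 and 87.8% for FRMD8. By highest fold NEAT1 ranked between 1 and 26 among expressed genes and MALAT1 between 129 and 414. The genes of like length whose covered share over the 6 S9.6 libraries was closest were ANO8, ADAMTSL4 and MAP3K6 for NEAT1, SLC4A11, ENO2 and TBX6 for MALAT1, and TLN1, BAD and GIPC1 for FRMD8. TLN1, for the adhesion protein talin, ran from 23.7% to 85.9% covered, and ENO2, neuronal enolase, from 30.2% to 95.4%, so that wide spreads between the libraries were found at other genes too. Heavy coverage was also found at some neighbours on the telomeric side. The median over the 6 libraries was 100% for SSSCA1 and FAM89B, which are much shorter genes than NEAT1. It was 89.7% for LTBP3, a TGF-beta binding protein, against 89.5% for NEAT1. SSSCA1-AS1, on the same side, had a median of 11.6%. On the other side POLA2 was nearly bare (3.33% to 9.31%), and the medians of DPF2 and SLC25A45 were 5.44% and 0%. Those of CDC42EP2 and TIGD3 were higher, at 43.3% and 36.6%.

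The RNase-treated libraries had few peaks over the locus. Genome-wide they held 731 and 997 peaks in shScr and 254, 419, 1912 and 692 in shRNF8. Over FRMD8 and MALAT1 there were 0 peaks in all 6. Over NEAT1 there were 0 peaks in both shScr libraries and in shRNF8 replicates 1 and 2, and 2 peaks each in shRNF8 replicates 3 and 4. Peak lists hold only what passed the caller, so 0 peaks does not show that signal was absent. RNase-treated shRNF8 replicates 3 and 4 were also the deepest RNase-treated libraries, with a library background of 0.706 and 0.620. It was 0.230 and 0.268 in shScr and 0.316 and 0.444 in shRNF8 replicates 1 and 2. In the S9.6 libraries it was 0.698 to 1.48. The part of depth in these NEAT1 peaks was not tested.

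All 4 of these peaks lay within the short NEAT1 transcript and none coincided. In shRNF8 replicate 3 they were chr11:65424091-65424467 (5.88-fold, summit 1596 bp after the start) and chr11:65425471-65425886 (4.78-fold). In replicate 4 they were chr11:65422981-65423429 (4.33-fold) and chr11:65426109-65426478 (4.79-fold, summit 3443 bp after the start). Beside the S9.6 peaks of the same replicate numbers, 94.9-fold and 72.5-fold, these were small, with summit pileups of 10, 8, 10 and 8 reads. A peak was present in 2.29% of expressed genes in RNase-treated shRNF8 replicate 3, in 0.695% in replicate 4 and in 0.664% in both, against 0.671% and 0.853% in the shScr libraries and 0.237% and 0.466% in shRNF8 replicates 1 and 2. At a -log10 q of at least 5 a single peak remained, that of 5.88-fold in replicate 3, and at 10 none did.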

How the data were processed

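Groups and replicate numbers came from the sample titles. The authors deposited a table of fragment counts per gene, made with featureCounts per the file headers (Subread 2.0.1, STAR 2.7.9a, MACS2 2.2.7.1 and hg38 per the submitters' processing notes). The authors also deposited a DRIP peak list for each library: fold enrichment (a linear ratio), -log10 of the p-value and q-value, and a display score, which was not used. Members and gene lists were chosen with earlier results of these data known. The counts were fitted with edgeR 4.0.16 in R 4.3.3 (filterByExpr, TMM, glmQLFit and glmQLFTest over all 14018 genes, Benjamini-Hochberg threshold 0.05), beside DESeq2 1.42.0 and limma 3.58.1, and tested on simulated data. In all, 356 genes passed (136 higher, 220 lower), at a biological coefficient of variation of 12.4%. Peaks were analysed in Python 3.11.15. Total DRIP read depth is unknown. A whole-number pileup was solved from the fold and the p of each peak (at least 99.7% of peaks returned the -log10 p to within 0.001), and the lowest background shared by 5 peaks within 1% measured depth. Depth matching kept peaks at a -log10 p of at least 4, with their deposited bounds. Named besides the 3 genes and RNF8 were 5 neighbours on each side, up to 4 list members that passed or else the 2 with the smallest p, and the 3 genes most alike by RNA (Pearson correlation) and by covered share (Euclidean distance). Values of some genes of these sets are not reported here.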

Additional observations from a re-analysis of the deposited data

How the results depend on the processing

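Over 366 recomputed values of 31 results, 309 stayed close by the rule used and 57 did not. The rule allowed a move of less than the spread between replicates, or a count within 1.5 times the main one. Medians of log2 fold change were held to a fixed tolerance instead. Without a filter on low counts 267 genes were called higher and 381 lower, and with DESeq2 324 and 535. In each of these 2 settings 1 paraspeckle gene and 1 neighbour were called lower. Same-numbered RNA libraries did not deviate together (correlations -0.05, 0.11 and -0.23), so the numbers are not read as pairs. With the replicate block 205 genes were called higher and 296 lower, with 1 paraspeckle gene and 1 neighbour lower. With each RNA library left out in turn, genes called higher ran from 17 to 1823 and lower from 29 to 2042, the largest counts without shScr replicate 1. Calls ran from 0 to 13 higher and 0 to 1 lower for paraspeckle genes, 0 to 8 higher and 0 to 2 lower for speckle genes, 0 to 7 higher for 3′ end processing, and 0 to 1 higher and 0 to 2 lower for neighbours. The covered share of MALAT1 differed by 26.3 percentage points at a -log10 q of at least 10. The highest fold of FRMD8 differed by 38.2 with any overlap counted and by 2.11 when 50% of a peak had to lie inside. RNase-treated peaks over the locus numbered 1 at a -log10 q of at least 5 and 0 at 10, in 1 and 0 libraries, and 2 to 4 with a library left out. The settings with shRNF8 replicates 1 and 2 only, or 3 and 4 only, were chosen after seeing the data. With replicates 1 and 2 only, the differences in covered share were -4.87 points for the locus, 9.16 for FRMD8, -5.22 for NEAT1 and -38.6 for MALAT1, and those in highest fold were 4.50 for the locus and NEAT1 and 0.89 for FRMD8. With replicates 3 and 4 only they were 29.6, 67.6, 10.5 and 24.0 points, and 37.4 for the locus and NEAT1 and 75.6 for FRMD8. Depth limits the peak lists, whose total reads are unknown, and 2 shScr DRIP libraries give a spread from 2 values.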

Other observations

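Just beyond the telomeric end of the locus the RNase-treated libraries held more peaks than over NEAT1. In chr11:65513985-65520954 (6970 bp) there were 6 peaks of 5.94-fold to 9.96-fold in RNase-treated shRNF8 replicate 3 and 4 peaks of 5.42-fold to 7.41-fold in replicate 4, from 7.47 kb after the MALAT1 end, and 0 in the other 4. S9.6 peaks covered 54.3% of the stretch in shRNF8 replicate 3 and 57.4% in replicate 4, at 4.08-fold to 6.05-fold. They covered 4.52% in shRNF8 replicate 1 and were at 0 in the other 3 S9.6 libraries. The stretch was chosen after its values were seen, and shRNF8 replicates 3 and 4 were the deepest of the RNase-treated libraries.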
